A study of Homo sapiens with 14 samples.

Results

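The genes described here are 9 amino acid transporters: SLC7A11, SLC7A5, SLC3A2, SLC7A1, SLC1A5, SLC1A4, SLC1A3, SLC38A1 and SLC38A2. All probe sets annotated to them were taken, which gave 19 probe sets of the 19064 on the array that named 1 gene, and 9 genes of 11963. They were measured in U2OS, a human osteosarcoma cell line, stably expressing ER-E2F1, in which the cell cycle transcription factor E2F1 is joined to an estrogen receptor domain and is switched on by OHT (4-hydroxytamoxifen). All cells carried ER-E2F1 and a lentivirus, with either a scrambled hairpin (sh-scr) or 1 of 2 hairpins, shFOXO33 and shFOXO707, each directed against FOXO1 together with FOXO3. Infection for 24 h was followed by 24 h without serum and then 6 h with 20 nM OHT (OHT) or without it (con). The 14 arrays comprised 4 sh-scr con, 4 sh-scr OHT, 1 shFOXO33 con, 1 shFOXO707 con, 2 shFOXO33 OHT and 2 shFOXO707 OHT. No sample received OHT in cells lacking ER-E2F1, so an effect of activated E2F1 and of OHT itself cannot be told apart, and the same holds for FOXO loss and any other way in which the viruses differed. No label tells whether the arrays of a group came from different cultures, so the p-values rest on a spread between arrays that may be technical.

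Amino acids cross the plasma membrane through carriers of several protein families. SLC7A11 (xCT) takes up cystine in exchange for glutamate and so feeds glutathione synthesis, and SLC7A5 (LAT1) exchanges large neutral amino acids such as leucine; each works as a dimer with the glycoprotein SLC3A2 (CD98 heavy chain). SLC7A1 (CAT1) carries arginine, lysine and ornithine without that partner. SLC1A5 (ASCT2) and SLC1A4 (ASCT1) exchange small neutral amino acids, with glutamine a main substrate of SLC1A5, while SLC1A3 (EAAT1, or GLAST) takes up glutamate and aspartate and is best known from glial cells. SLC38A1 and SLC38A2 (SNAT1 and SNAT2) import glutamine, alanine and other neutral amino acids together with sodium. Many of these genes are known targets of the factor ATF4 when amino acids run short, and SLC7A11 is also a known target of NRF2.

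RefSeq (GRCh38.p14) gave promoter windows, from 250 bases before to 50 after a start site, for 8 of the 9 genes (16 windows); SLC7A11 had no entry. The core letters of the amino acid response element bound by ATF4 and C/EBP factors were taken as TGATGNAA on either strand. They stood in 6 of the 16 windows, against 3.62% of all 35116 windows. By gene, this was 6 of those 8, against 4.46% of all 27305 genes with a window. The 6 stretches are shown because they set the transporter that rose with OHT, SLC1A4, beside 5 that were lower; the element stands in capitals in each.

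SLC1A4, chr2:64989149-64989402, plus strand: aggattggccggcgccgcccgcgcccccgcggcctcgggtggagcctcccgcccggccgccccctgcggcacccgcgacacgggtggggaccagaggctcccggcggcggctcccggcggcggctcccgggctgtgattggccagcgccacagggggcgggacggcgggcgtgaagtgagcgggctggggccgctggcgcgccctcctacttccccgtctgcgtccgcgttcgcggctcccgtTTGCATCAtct

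SLC7A1, chr13:29595671-29595938, minus strand: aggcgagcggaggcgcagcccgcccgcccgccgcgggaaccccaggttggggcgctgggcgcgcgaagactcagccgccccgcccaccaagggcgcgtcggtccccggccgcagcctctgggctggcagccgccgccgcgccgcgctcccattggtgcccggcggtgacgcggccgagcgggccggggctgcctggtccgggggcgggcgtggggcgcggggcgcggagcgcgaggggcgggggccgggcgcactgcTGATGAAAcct

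SLC1A5, chr19:46784893-46784922, minus strand: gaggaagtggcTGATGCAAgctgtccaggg

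SLC1A3, chr5:36596357-36596386, plus strand: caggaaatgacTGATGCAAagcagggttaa

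SLC38A1, chr12:46266502-46266531, minus strand: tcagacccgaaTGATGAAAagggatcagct

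SLC3A2, chr11:62881719-62881748, plus strand: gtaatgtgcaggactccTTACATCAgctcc

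Counted from the start site, the SLC1A4 element began at position -7 and lay in reverse orientation, that of SLC38A1 began at -4 and that of SLC7A1 at 8, and that of SLC1A3 lay farthest upstream, at -220. The windows of SLC7A5 and SLC38A2 held no TGATGNAA. SLC7A5 held an E-box, CACGTG, in its window, the element bound by MYC with MAX, and it is shown because SLC7A5 was the transporter that fell most with the hairpins.

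SLC7A5, chr16:87869508-87869757, minus strand: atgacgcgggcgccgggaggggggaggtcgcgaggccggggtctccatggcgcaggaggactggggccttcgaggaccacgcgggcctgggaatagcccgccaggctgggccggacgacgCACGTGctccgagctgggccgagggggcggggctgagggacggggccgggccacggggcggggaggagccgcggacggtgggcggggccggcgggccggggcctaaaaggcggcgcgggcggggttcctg

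That E-box, in capitals, began at position -130. CACGTG stood in windows of 2 of the 8 genes, SLC7A5 and SLC1A5, against 8.77% of all genes with a window. A FOXO site, TGTTTAC, was present in 1 of the 8 genes, SLC1A5, against 4.19% of all genes with a window. An E2F site (TTTCCCGC, TTTCGCGC, TTTGCCGC or TTTGGCGC) was present in 1 gene, SLC3A2, against 3.99%. An antioxidant response element was present in 1 gene, SLC1A5, against 3.94%. None of these searched letters overlapped one another in the members' windows. A match is a description of the letters and not of binding.

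Both targeted genes were lower with the hairpins. With OHT, FOXO3 averaged 1793 ± 45.2 (SD, n = 4) in scrambled cells, 307.3 ± 25.0 (SD, n = 2) with shFOXO33 and 809.6 ± 62.0 (SD, n = 2) with shFOXO707, and the FOXO1 difference was -1.29 ± 0.14 (SE, adjusted p = 4.61e-05). The median signal over all probe sets was 140 ± 2.42 (SD, n = 6) without OHT and 118 ± 1.84 (SD, n = 8) with OHT, although every array had the same trimmed mean of 500. The median log2 difference of all genes with OHT in scrambled cells was -0.23. The ratio of the 3' to the 5' probe set of ACTB, a sign of RNA integrity and labelling, was 1.95 to 2.04 on the shFOXO707 OHT arrays, 1.60 to 1.63 on the shFOXO33 OHT arrays and 1.60 to 1.74 on the scrambled OHT arrays. Of the osteoblast markers, 6 of 8 on the array were above the filter on low signals, but RUNX2 and IBSP were not. The brightest were COL1A1 and SPARC, which ranged from 7086 to 10319 and from 777 to 9433 over all arrays. The summed signal, made up mostly of these, was 9077 to 17106 in knockdown and 17212 to 18071 in scrambled cells with OHT. Epithelial markers, of which 3 of 7 were above the filter, summed to 3482 to 6230 and 5177 to 5443 in the same groups. Neural markers, with 4 of 8 above it, summed to 10672 to 12195 and 12222 to 12677, and none of 7 blood cell markers was above it. The part of these differences in the results below was not tested. Signals are relative to each array, so fewer cells of a kind and less RNA per cell cannot be told apart.

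With OHT in scrambled cells, SLC1A4 rose and SLC7A11, SLC38A1, SLC1A5, SLC3A2 and SLC7A1 fell, SLC1A3 was lower at signals that bear no test, and SLC7A5 and SLC38A2 were not called. Values are log2(signal + 16) differences ± SE from limma, and genes with a p under 0.05 after Benjamini-Hochberg adjustment over 7720 genes were called. Thus 7 of the 9 genes were called (1 higher, 6 lower), against 70.5% of all genes (24% higher, 46.4% lower), so the share called was near that of all genes. Without SLC1A3, which passed the filter on low signals only through its arrays lacking OHT, 6 of the other 8 were called (1 higher, 5 lower). The median difference of the 9 was -0.33, beside -0.23 over all genes. The sizes, which ran from -1.70 to 2.52, differed widely between members.

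**Figure D1:**
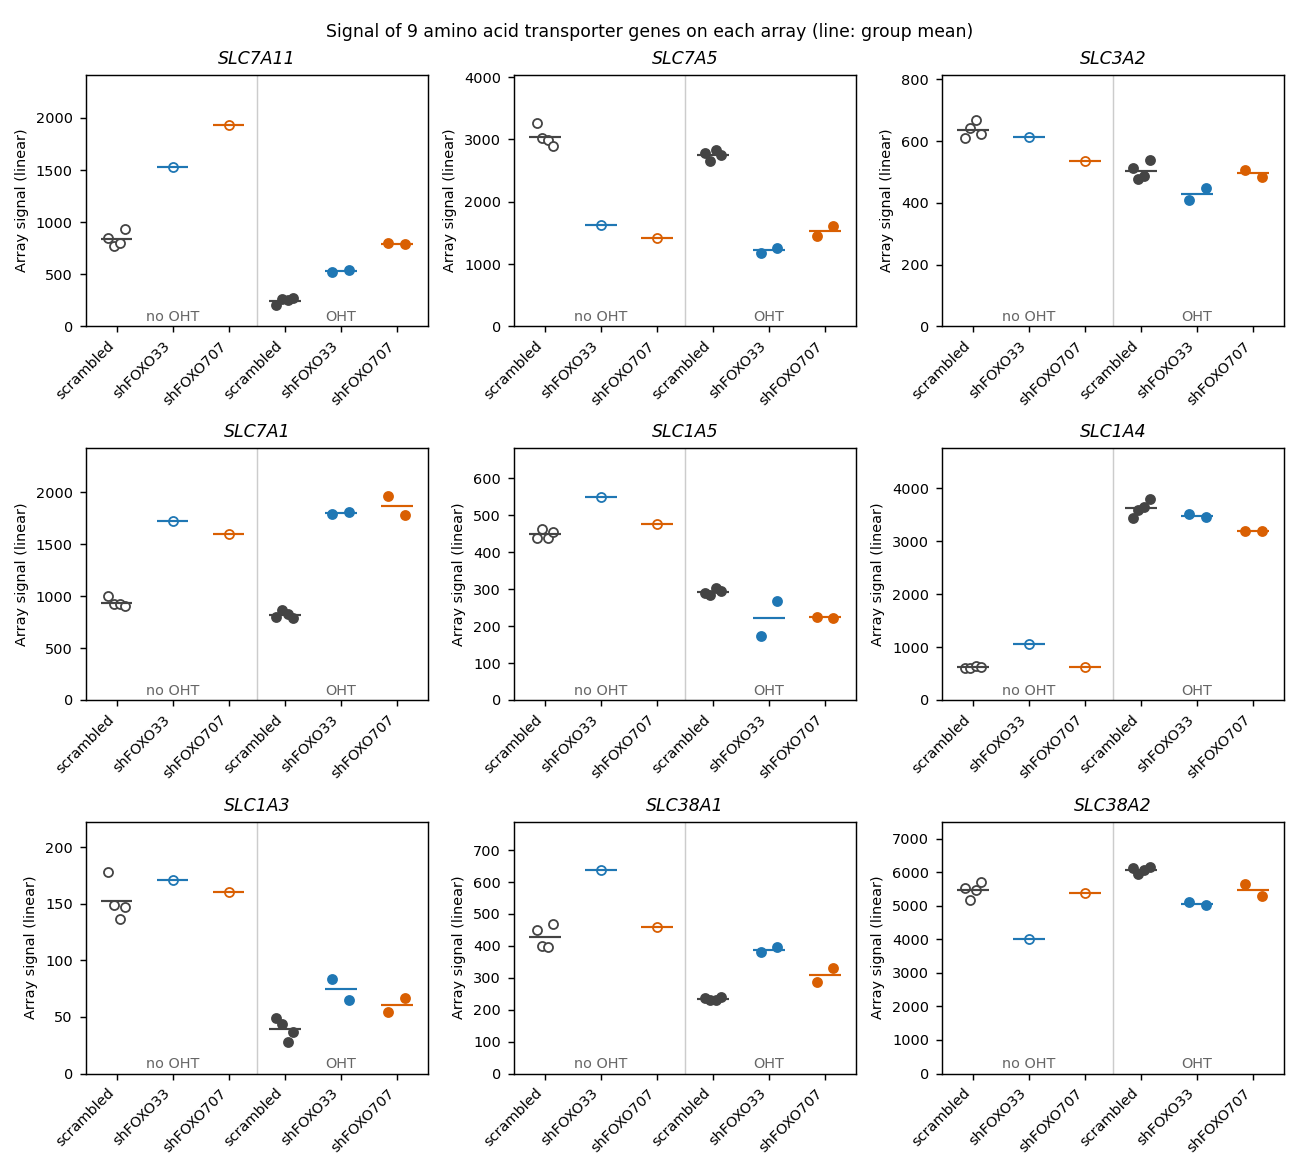
Array signal (linear scale, from 0) of the highest probe set of each of the 9 genes in the 6 groups; points are arrays, short lines are group means, and open points had no OHT. SLC1A4 with OHT lay between 3185 and 3808 on 8 arrays, SLC7A11 was lowest in scrambled cells with OHT (207.9 to 269.4), and SLC7A5 was at most 1634 on all 6 hairpin arrays.

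SLC1A4 was the strongly induced member. Its signals were 606.0, 601.5, 640.2 and 622.3 in the scrambled arrays without OHT and 3445, 3598, 3652 and 3808 in those with OHT. The groups were far apart, and the difference was 2.52 ± 0.11 (limma adjusted p = 3.05e-10), at the 98.6th percentile of all genes. All 4 of its probe sets rose, by between 2.16 and 2.52. In knockdown cells the increase was 2.01 ± 0.14 (limma adjusted p = 5.32e-08), from 1058 in the shFOXO33 and 630.4 in the shFOXO707 array without OHT to between 3185 and 3513 with OHT. Its window held the TGATGNAA match shown above, as did those of SLC1A5, SLC1A3 and SLC38A1, which were lower with OHT.

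SLC7A11, the cystine carrier, also changed strongly, in the other direction. Its signals were 848.0, 772.5, 799.0 and 931.6 without OHT and 207.9, 264.5, 249 and 269.4 with OHT in scrambled cells, with no overlap. The difference was -1.70 ± 0.14 (limma adjusted p = 1.55e-07), among the lowest 2.71% of all genes. In knockdown cells it was -1.38 ± 0.18 (limma adjusted p = 1.72e-05). SLC7A11 therefore fell with OHT in both settings.

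SLC1A3, the glutamate carrier, went from 178.1, 148.6, 136.9 and 147.1 to 49.2, 44.2, 27.5 and 36.9. The values with OHT all lay below 79.1, the signal that the filter on low values required as a mean over the 14 arrays, so the size of this change is loosely determined. SLC1A3 passed the filter through its arrays without OHT, on all of which it was above that signal, so a difference was built into its selection. The differences of -1.62 ± 0.15 in scrambled cells and -1.13 ± 0.18 in knockdown cells are therefore given as a description, with no test.

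The glutamine carriers SLC38A1 and SLC1A5 fell less. SLC38A1 had signals of 450.8, 398.2, 397.0 and 469.1 without OHT and 235.5, 228.9, 229.5 and 239.8 with it, a difference of -0.83 ± 0.12 (limma adjusted p = 2.05e-05). SLC1A5 had signals of 438.9, 463.9, 439.0 and 454.7 without OHT and 289.3, 285.2, 302.2 and 296.2 with it, a difference of -0.59 ± 0.10 (limma adjusted p = 0.000182). Neither gene's groups overlapped. In knockdown cells the changes were -0.62 ± 0.14 for SLC38A1 (limma adjusted p = 0.00185) and -1.16 ± 0.13 for SLC1A5 (limma adjusted p = 4.05e-06).

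SLC3A2, the shared partner of SLC7A11 and SLC7A5, was lower by a difference of -0.33 ± 0.08 (limma adjusted p = 0.00223), from 609.1, 643.7, 666.6 and 623.7 to 514.0, 478.7, 486.7 and 538.4. That size is close to the median of all genes, and with each array centred on its median signal it was -0.10 (limma adjusted p = 0.315), which ended the call. In knockdown cells the difference was -0.31 ± 0.10 (limma adjusted p = 0.015), and the call was likewise lost on centring (-0.08, limma adjusted p = 0.542). It was also lost with quantile normalization (limma adjusted p = 0.133). Without the shFOXO33 array lacking OHT, which left 1 knockdown array on that side, the difference was -0.21. The call of SLC3A2 therefore depended on how the arrays were scaled.

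By its highest probe set, SLC7A1, the arginine and lysine carrier, changed little with OHT. Its signals were 1004, 920.8, 922.6 and 905.3 without OHT and 795.1, 866.8, 824.3 and 788.0 with it in scrambled cells, a difference of -0.19 ± 0.06 (limma adjusted p = 0.0122). Its groups did not overlap, but on centring by the array median the sign turned (0.03, limma adjusted p = 0.66), as it did where probe sets ending in _x_at or _s_at were left out (0.17). In knockdown cells the difference of SLC7A1 was 0.14 ± 0.08 and was not called (limma adjusted p = 0.117), though it was on centring (0.37, limma adjusted p = 0.000891). The second brightest SLC7A1 probe set rose there by 0.64 in the fit of all probe sets (limma adjusted p = 0.0127), with groups that did not overlap.

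SLC7A5 and SLC38A2 were not called with OHT, though each was under some other settings. SLC7A5, the leucine carrier, had 3264, 3016, 2993 and 2902 without OHT and 2785, 2647, 2828 and 2755 with it, groups that did not overlap, with a difference of -0.14 ± 0.09 (limma adjusted p = 0.156). SLC38A2, a carrier that is classically induced when amino acids are scarce, had 5527, 5181, 5489 and 5725 without OHT and 6124, 5950, 6081 and 6154 with it, a difference of 0.15 ± 0.07 (limma adjusted p = 0.0865). Its values with OHT were higher on all 4 arrays, and it was called on centring (0.38, limma adjusted p = 0.000455), where the sign of SLC7A5 turned (0.08, limma adjusted p = 0.432). The other SLC38A2 probe set was at 0.01 in the fit of all probe sets (limma adjusted p = 0.947), and its groups overlapped. SLC7A5 in scrambled cells was called lower after quantile normalization (-0.23, limma adjusted p = 0.0229) and where the arrays were kept in their 6 title groups (limma adjusted p = 0.0108). In knockdown cells its difference was -0.16 and was not called (limma adjusted p = 0.21). It was called with the 6 title groups (limma adjusted p = 0.0194) and without the second shFOXO707 OHT array (-0.24, limma adjusted p = 0.0417). The hairpins taken alone went opposite ways, at -0.42 with shFOXO33 and 0.10 with shFOXO707. Each hairpin had 1 array without OHT, so only sizes are given.

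In knockdown cells 6 of the 9 genes were called with OHT (1 higher, 5 lower), against 57.9% of all genes, or 5 of 8 without SLC1A3. SLC1A4 was higher, and SLC7A11, SLC38A1, SLC1A5 and SLC3A2 were lower. The interaction, the OHT response with the hairpins minus the response without them, called 0 of the 9, against 0.35% of all genes, and 3 had an unadjusted limma p under 0.05. These were SLC1A5 (-0.57 ± 0.16, limma adjusted p = 0.17), SLC7A1 (0.34 ± 0.10, limma adjusted p = 0.17) and SLC1A4 (-0.51 ± 0.18, limma adjusted p = 0.281). All 3 were called where the arrays were kept in their 6 title groups (limma adjusted p = 0.0296, 0.0136 and 0.00019), where 9.69% of all genes were called, and also with virus as a random block (limma adjusted p = 0.0474, 0.0414 and 0.0318), where 4.39% were. For SLC1A4 the hairpins differed in the value without OHT, so that its response was 1.71 with shFOXO33 and 2.31 with shFOXO707, each against 1 array.

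**Figure D2:**
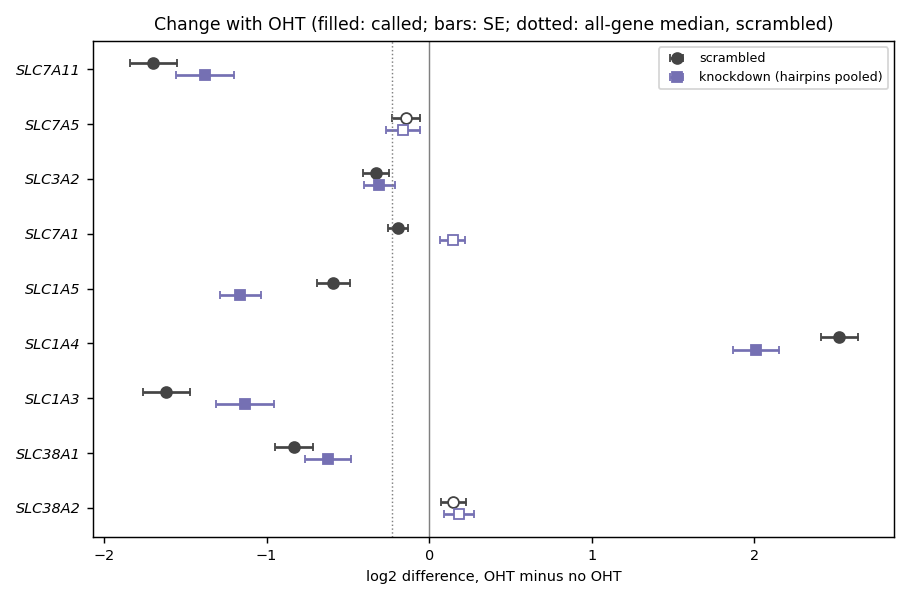
Log2 difference, OHT minus no OHT, for each gene in scrambled (grey circles, 4 and 4 arrays) and knockdown cells (purple squares, 4 and 2 arrays); bars are SE, filled symbols were called, and the dotted line is the all-gene median of -0.23. SLC1A4 stands alone on the right, at 2.52 and 2.01, and SLC7A11 lies farthest left, at -1.70 and -1.38.

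Against scrambled cells, both with OHT, SLC7A11, SLC7A1 and SLC38A1 were higher in cells with the hairpins, and SLC7A5 and SLC1A5 were lower. Thus 6 of the 9 genes were called (4 higher, 2 lower), against 22.7% of all genes (14.7% higher, 8.01% lower). Without SLC1A3, whose signals with OHT were near or under the filter, 5 of the other 8 were called (3 higher, 2 lower). The median difference was -0.12, beside 0.04 over all genes. These comparisons share the scrambled OHT arrays with the response to OHT above, so the opposite signs of SLC7A11 and SLC38A1 in the 2 are not independent. Arrays of 1 hairpin counted as separate replicates, and with virus as a random block (correlation 0.64 within a virus) 3 of the 6 calls remained, those of SLC7A11, SLC7A5 and SLC7A1, beside 1.36% of all genes called.

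SLC7A11 was 522.0 and 543.3 with shFOXO33 and 797.0 and 787.1 with shFOXO707 in OHT, all above the scrambled maximum of 269.4. The difference was 1.34 ± 0.14 (limma adjusted p = 4.06e-05), at the 99.8th percentile of all genes. Without OHT it was 1527 with shFOXO33 and 1928 with shFOXO707, again above all 4 scrambled arrays (772.5 to 931.6). That difference was 1.02 ± 0.18 (limma adjusted p = 0.00351), and limma adjusted p = 0.0725 with virus as a random block. SLC7A11 was thus higher on every hairpin array than on the scrambled arrays of the same treatment.

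SLC7A1 was 1787 and 1815 with shFOXO33 and 1962 and 1778 with shFOXO707 in OHT, all above the scrambled maximum of 866.8. The difference was 1.15 ± 0.06 (limma adjusted p = 1.1e-07). Without OHT it was 1724 and 1595 in the 2 hairpin arrays against at most 1004 in scrambled cells, a difference of 0.81 ± 0.08 (limma adjusted p = 3.32e-05). The highest probe set of SLC7A1 carries these values, and the call without OHT was lost with another of its probe sets (0.36, limma adjusted p = 0.292).

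SLC7A5 moved the other way. It was 1176 and 1263 with shFOXO33 and 1449 and 1604 with shFOXO707 in OHT, all below the scrambled minimum of 2647. The difference was -1.01 ± 0.09 (limma adjusted p = 6.21e-06), among the lowest 0.693% of all genes. Without OHT it was 1634 and 1426 against at least 2902 in scrambled cells, a difference of -0.99 ± 0.11 (limma adjusted p = 0.000107). The interaction of SLC7A5 was -0.02 ± 0.14 (limma adjusted p = 0.997). Its partner SLC3A2 was not called, at -0.13 ± 0.08 with OHT (limma adjusted p = 0.273) and -0.14 ± 0.10 without it (limma adjusted p = 0.431).

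**Figure D3:**
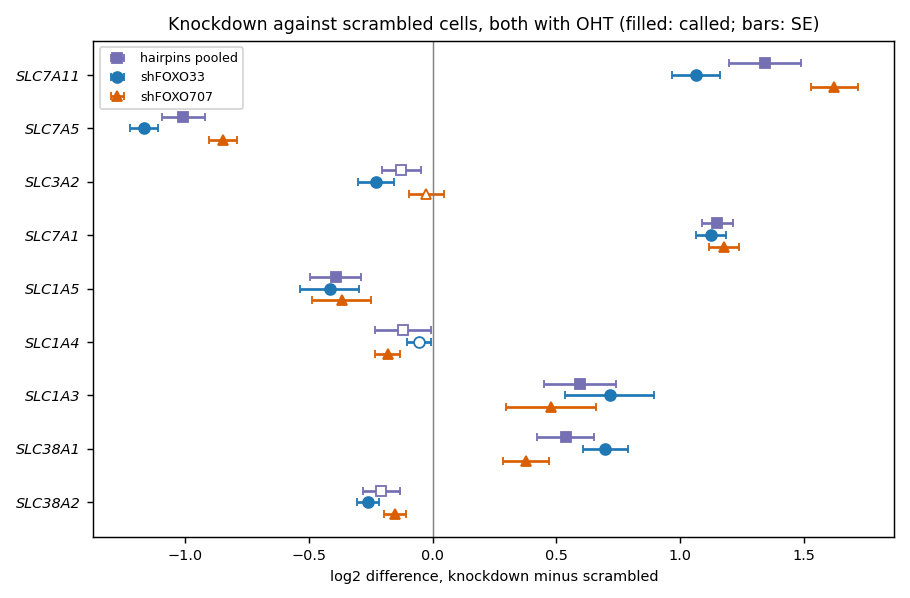
Log2 difference, knockdown minus scrambled, with OHT, for each gene with the hairpins pooled (purple squares), shFOXO33 (blue circles) and shFOXO707 (orange triangles); bars are SE and filled symbols were called. SLC7A11 and SLC7A1 lie above 1 and SLC7A5 lies between -1.17 and -0.85 with either hairpin.

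The remaining changes were smaller. SLC38A1 with OHT was 380.9 and 395.8 with shFOXO33 and 285.4 and 332.0 with shFOXO707, above the scrambled maximum of 239.8, a difference of 0.54 ± 0.12 (limma adjusted p = 0.00504). SLC1A3 was 83.8 and 65.1 with shFOXO33 and 54.2 and 67.0 with shFOXO707, above the scrambled maximum of 49.2, a difference of 0.60 ± 0.15. Of these 8 SLC1A3 values 7 lay below the filter signal of 79.1, so the difference is given with no test. SLC1A5 was 172.8 and 268.6 with shFOXO33 and 225.0 and 222.2 with shFOXO707, below the scrambled minimum of 285.2, a difference of -0.39 ± 0.10 (limma adjusted p = 0.0164). With virus as a random block the calls of SLC38A1 and SLC1A5 were lost, at limma adjusted p = 0.273 and 0.585. SLC1A4 (-0.12 ± 0.11, limma adjusted p = 0.487) and SLC38A2 (-0.21 ± 0.07, limma adjusted p = 0.0618) were not called. SLC38A2 on all 4 hairpin arrays with OHT (5028 to 5652) nevertheless lay below all 4 scrambled arrays (5950 to 6154). It was called lower in 8 of 27 alternatives, among them centring (-0.24, limma adjusted p = 0.0349), quantile normalization (-0.23, limma adjusted p = 0.0461) and the 6 title groups (limma adjusted p = 0.000253). The 8 also include the fits without the shFOXO33 or the shFOXO707 array lacking OHT. Those arrays are outside this comparison, and the size stayed at -0.21, so only the estimated spread changed.

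Without OHT, 3 of the 9 genes were called between knockdown and scrambled cells (SLC7A11 and SLC7A1 higher, SLC7A5 lower), against 7.81% of all genes. Only 1 array stands for each hairpin there. Without the shFOXO707 array, 1 shFOXO33 array was left as the knockdown group, so only sizes are given. There SLC1A4 was at 0.76, SLC38A1 at 0.56 and SLC38A2 at -0.45. SLC1A4 was 1058 in the shFOXO33 array and 630.4 in the shFOXO707 array, beside 601.5 to 640.2 in scrambled cells. SLC38A2 was 3999 and 5377 in these arrays, beside 5181 to 5725.

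Tested separately with OHT in the 6-group fit, shFOXO33 called 8 of the 9 genes (4 higher, 4 lower), against 49.4% of all genes, and shFOXO707 likewise 8 (4 higher, 4 lower), against 41.8%. SLC1A4 was the one not called with shFOXO33 (-0.06, limma adjusted p = 0.366), and SLC3A2 the one not called with shFOXO707 (-0.02, limma adjusted p = 0.81). The shFOXO707 count fell without the second shFOXO707 OHT array, and the shFOXO33 count fell without the first shFOXO33 OHT array. Each of these fits left 1 OHT array for that hairpin, so the counts are not given. SLC1A3, at signals near or under the filter, was 1 of the 8 called with each hairpin, and 7 of 8 were called without it. Between the hairpins 3 of the 9 genes differed, against 43.5% of all genes, which is below the share over all genes. SLC7A11 was lower with shFOXO33 by -0.56 ± 0.11 (limma adjusted p = 0.000695), its differences from scrambled cells being 1.06 and 1.62 for shFOXO33 and shFOXO707. SLC7A5 was lower with shFOXO33 by -0.32 ± 0.07 (limma adjusted p = 0.0011), with differences of -1.17 and -0.85. SLC38A1 was higher with shFOXO33 by 0.32 ± 0.11 (limma adjusted p = 0.0228), with differences of 0.70 and 0.38. This call was lost without either shFOXO33 OHT array or without the first shFOXO707 OHT array (0.35, 0.29 and 0.22). Those fits left 1 OHT array for the hairpin concerned. FOXO3 itself was lower with shFOXO33 than with shFOXO707 (-1.35 ± 0.10, limma adjusted p = 1.98e-08), and the ACTB ratio also differed between these arrays, as given above; the part of either in the 3 differences was not tested. SLC7A1 differed by -0.05 ± 0.07 and was not called (limma adjusted p = 0.578).

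The probe sets of 1 gene did not all give the same value. When all 22215 probe sets were fitted without the filter, 12 of the 19 were called with OHT in scrambled cells (4 higher, 8 lower), against 45.4% of all probe sets, and 9 of 19 between knockdown and scrambled cells with OHT (6 higher, 3 lower), against 10.1%. With OHT in knockdown cells 12 were called (5 higher, 7 lower), against 33.8%, and without OHT 4 between knockdown and scrambled cells (3 higher, 1 lower), against 3.16%. These shares take in the dim probe sets below the filter, whereas all but 1 of the 19 lay above it. Above the filter, 22.7% of genes were called for knockdown with OHT. Several of the 19 belong to the same gene, and SLC1A3, given above with no test, was among those called in all but the last comparison. The second brightest SLC7A11 probe set gave -1.63 with OHT and 1.11 with the hairpins (limma adjusted p = 3.98e-08 and 5.04e-05), close to the values above. The dimmest SLC7A11 probe set gave -0.52 (limma adjusted p = 0.00392) and 0.19, the latter not called (limma adjusted p = 0.434). Of the 5 SLC7A1 probe sets, the second brightest also rose with the hairpins in OHT (0.83, limma adjusted p = 0.00244), while the 3 dimmer ones, 1 of them below the filter, were at 0.13 to 0.60 and not called. The SLC1A4 probe sets gave -0.46 to 0.01 with the hairpins, and the dimmest of the 4 was called lower (-0.46, limma adjusted p = 0.0361). The 2 SLC38A2 probe sets gave -0.21 and -0.22, and neither was called.

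**Figure D4:**
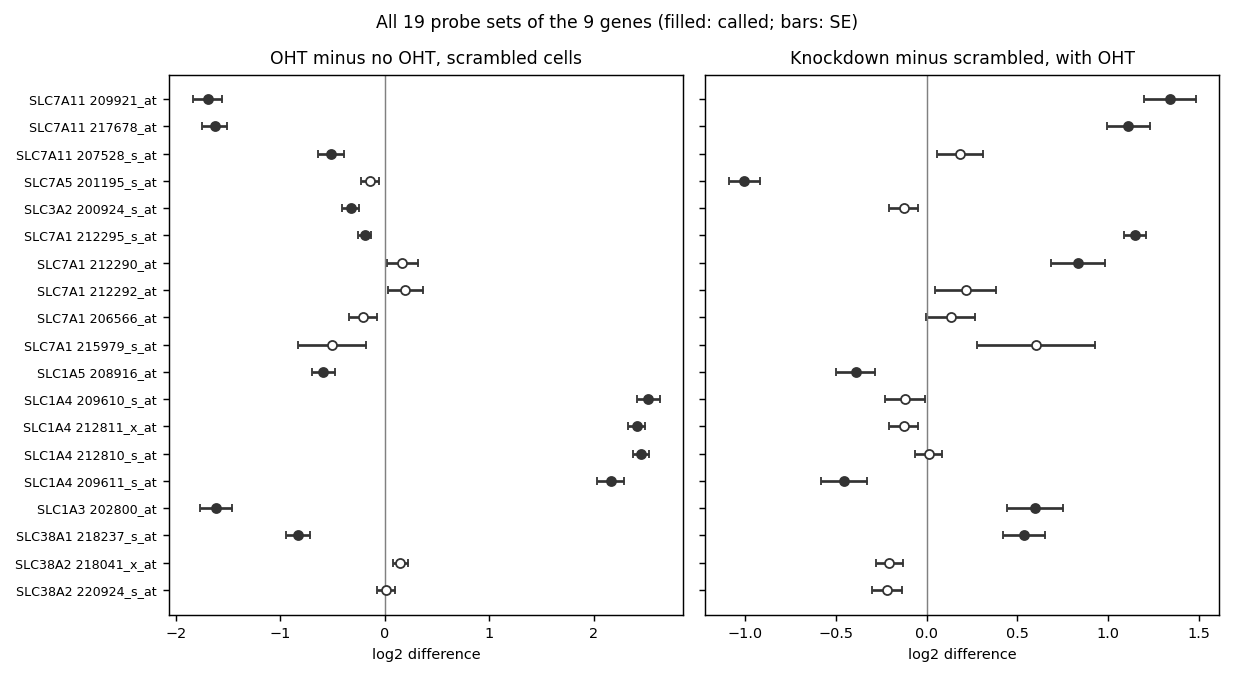
Log2 differences of all 19 probe sets, with SE bars, for OHT in scrambled cells (left) and for knockdown against scrambled cells with OHT (right); filled points were called among 22215 probe sets. The 4 SLC1A4 probe sets lie together at 2.16 to 2.52 on the left, and the SLC7A1 probe sets spread from 0.13 to 1.15 on the right.

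The 6 group means of 7 members spanned at least 1 log2 unit, and for these the genes with the most similar pattern were found, by the root mean square difference over the 6 group means, each relative to scrambled cells without OHT. For SLC7A11 these were CREB3L2 (0.24) and IFRD1 (0.28), the largest distances among the 7. For SLC7A5 they were KCTD20 (0.18) and TOR1A (0.21), and for SLC7A1 CYB5R3 (0.15) and TNC (0.17). For SLC1A4 they were WNT10B (0.13) and TEAD4 (0.15), and for SLC1A5 CCNL2 (0.14) and PFKM (0.17). OXSM and MED23 lay nearest to SLC1A3 (0.07 and 0.08) and MRPL4 and MTHFSD nearest to SLC38A1 (0.08 and 0.09).

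Among 36 other transporters of the plasma membrane and lysosome, 26 were on the array and 9 passed the filter. With OHT in scrambled cells 2 of these rose and 6 fell, with a median of -0.51, beside 24% and 46.4% of all genes and a median of -0.23. SLC7A6, a light chain that also pairs with SLC3A2, rose by 1.05 ± 0.13 (limma adjusted p = 8.62e-06), and SLC36A1, a lysosomal and plasma membrane proton-coupled carrier, fell by 1.10 on the log2 scale (limma adjusted p = 2.81e-06). SLC36A1 was also the 1 gene of these 9 called with the hairpins in OHT, at 1.13 ± 0.12 (limma adjusted p = 4.57e-05), beside 22.7% of all genes.

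Of 19 tested genes of the amino acid response and ATF4 pathway, 6 rose and 8 fell with OHT in scrambled cells, with a median of -0.30, beside 24% and 46.4% of all genes. CHAC1, which degrades glutathione, rose by 2.35 ± 0.17 (limma adjusted p = 3.53e-08) and CEBPB, a transcription factor of the response, by 0.88 ± 0.06 (limma adjusted p = 3.03e-08). HERPUD1, a gene of endoplasmic reticulum protein quality control, and PPP1R15A, a phosphatase subunit that reverses the translation block, were lower, at -1.78 and -1.38 (limma adjusted p = 4.25e-08 and 7.79e-09). With the hairpins in OHT none rose and 1 fell, ATF3 (-0.37 ± 0.09, limma adjusted p = 0.0135), beside 14.7% and 8.01% of all genes. Each hairpin alone called more of the 19, with 5 higher and 4 lower for shFOXO33, beside 49.4% of all genes, and 2 higher and 7 lower for shFOXO707, beside 41.8%. ATF4 itself was at -0.05 ± 0.14 with OHT (limma adjusted p = 0.753) and -0.02 ± 0.14 with the hairpins pooled (limma adjusted p = 0.926). The hairpins lay on opposite sides of scrambled cells with OHT, where ATF4 averaged 5060 ± 234 (SD, n = 4). It averaged 5894 ± 73.5 (SD, n = 2) with shFOXO33 and 4206 ± 87.7 (SD, n = 2) with shFOXO707. SLC1A4 and SLC7A11, both described as ATF4 targets, moved in opposite directions with OHT.

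Of 24 tested genes of glutathione, thioredoxin and NRF2, the pathway that uses the cystine brought in by SLC7A11, 6 rose and 9 fell with OHT in scrambled cells, with a median of -0.12, beside 24% and 46.4% of all genes. GSR, glutathione reductase, rose by 1.05 ± 0.09 and BACH1, a repressor of NRF2 targets, by 1.89 ± 0.21 (limma adjusted p = 2.42e-07 and 2.24e-06). With the hairpins in OHT 3 rose and 2 fell, beside 14.7% and 8.01% of all genes, among them TXNRD1, thioredoxin reductase (-0.89 ± 0.28, limma adjusted p = 0.0339). TXNRD1 also differed between the hairpins (-1.10 ± 0.08, limma adjusted p = 3.32e-08).

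Of 25 tested enzymes of amino acid synthesis and breakdown, 5 rose and 13 fell with OHT in scrambled cells, with a median of -0.30, beside 24% and 46.4% of all genes. GLUD1, glutamate dehydrogenase, rose by 2.38 ± 0.08 (limma adjusted p = 1.22e-11), and ODC1, which makes putrescine from ornithine, by 1.09 ± 0.04 (limma adjusted p = 4.24e-11). GOT1, the cytosolic aspartate aminotransferase, fell by 1.23 on the log2 scale (limma adjusted p = 1.94e-09). With the hairpins in OHT 4 rose and 3 fell, beside 14.7% and 8.01% of all genes, and ALDH18A1, an enzyme of proline and ornithine synthesis, rose by 0.85 ± 0.12 (limma adjusted p = 0.000337). ASS1, which makes the precursor of arginine, fell by 0.36 on the log2 scale (limma adjusted p = 0.000268).

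Of 25 tested genes of amino acid sensing by mTORC1, the kinase complex that reads leucine and arginine supply, 4 rose and 13 fell with OHT in scrambled cells, with a median of -0.35, beside 24% and 46.4% of all genes. RRAGD, a Rag GTPase, rose by 2.50 ± 0.08 and TFEB, a factor for lysosomal genes, by 1.95 ± 0.10 (limma adjusted p = 6.23e-12 and 1.37e-09), while WDR59, of the GATOR2 complex, and RRAGA, another Rag GTPase, were lower, at -1.56 and -1.07 (limma adjusted p = 1.36e-08 and 1.87e-08). With the hairpins in OHT 6 rose and 1 fell, SESN1 (-0.36 ± 0.08, limma adjusted p = 0.00606), beside 14.7% and 8.01% of all genes. Of 19 tested transcription factors described as regulators of the transporters, 10 rose and 5 fell with OHT in scrambled cells, against the same shares of all genes. MYC and its partner MAX were lower, at -1.75 and -1.47 (limma adjusted p = 4.53e-09 and 1.32e-08), and EPAS1, a hypoxia-inducible factor, rose by 2.60 ± 0.14 (limma adjusted p = 1.87e-09). With the hairpins in OHT 4 rose and 3 fell, the latter including FOXO1 and FOXO3 themselves, again beside 14.7% and 8.01% of all genes. MAX was among those that rose (0.56 ± 0.10, limma adjusted p = 0.00136), and MYC was not called (0.25 ± 0.10, limma adjusted p = 0.104).

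**Figure D5:**
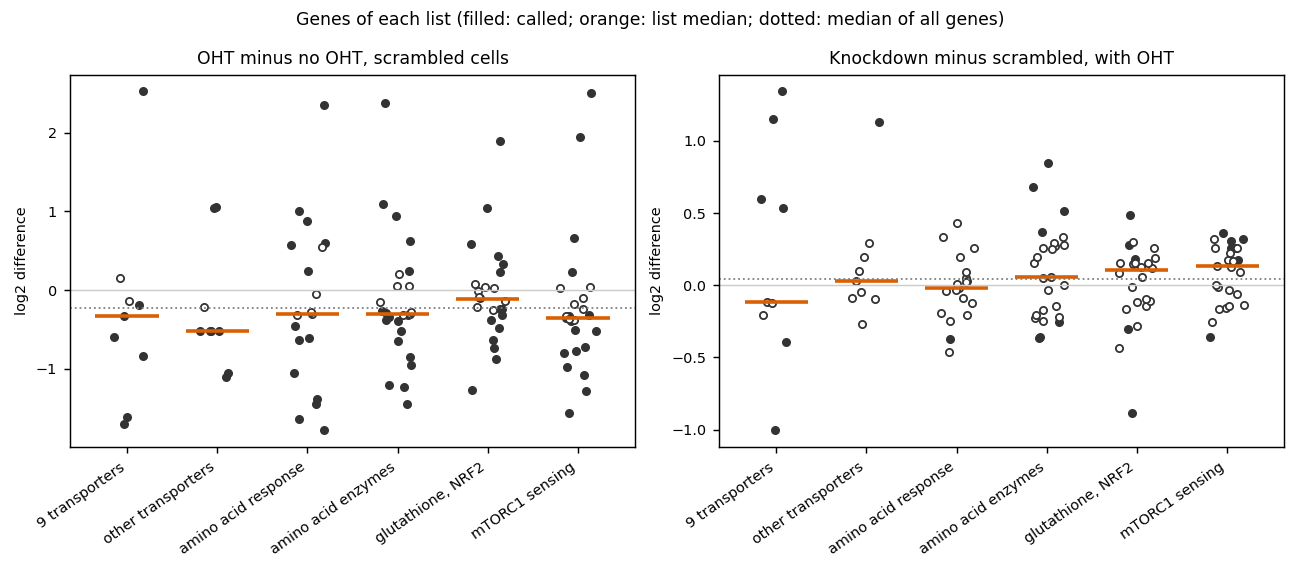
Log2 differences of the 9 transporters and of the tested genes of 5 related lists, for OHT in scrambled cells (left) and for knockdown against scrambled cells with OHT (right); filled points were called, orange lines are list medians and dotted lines the median of all genes. SLC1A4 is the highest transporter on the left, at 2.52, and SLC7A11, SLC7A1 and SLC7A5 are the outermost transporters on the right.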

How the data were processed

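The authors deposited 1 intensity per probe set and array on a linear scale, computed by MAS5, as the submitters' processing notes name it without a version. Each of the 14 arrays had a trimmed mean of 500. Symbols came from the platform annotation, updated through RefSeq (GRCh38.p14). Differences were computed as log2(signal + 16), which understates changes of dim genes. Probe sets above the 40th percentile of mean log2 signal were kept, with the brightest per gene, giving 7720 genes. limma 3.58.1 in R 4.3.3 (lmFit, eBayes with trend) was fitted over all 14 arrays in 4 groups with the hairpins pooled, and in 6 title groups for single hairpins. All tests were two-sided, and the script was tested on simulated data. The genes and lists, and the rule that names up to 2 genes each way per list by smallest adjusted p, were chosen with earlier results of these data known. Alternatives were 14 processing settings and 14 that left out 1 array each. Samples were grouped by title. The number of arrays limits the precision. No protein sequences were used here.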

Additional observations from a re-analysis of the deposited data

Results flagged for a closer look

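3 results were flagged because the hairpins differed from each other with OHT, by a direct test of the difference in the limma fit with 6 groups. They are 3 of the 9 genes, against 43.5% of all genes, so the share called was below that of all genes. SLC7A11 was lower with shFOXO33 than with shFOXO707 by -0.56 on the log2 scale, lower on both shFOXO33 arrays than on both shFOXO707 arrays. SLC7A5 was lower with shFOXO33 by -0.32, again on both arrays. SLC38A1 was higher with shFOXO33 by 0.32, on both arrays. The ACTB 3' to 5' ratio was 1.95 to 2.04 with shFOXO707 and 1.60 to 1.63 with shFOXO33 on these arrays, and its part was not tested. No array of the 9 genes lay far from the others of its group by Dixon's criterion in the 18 sets of 4 scrambled arrays that could be examined.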

How the results depend on the processing

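Of the 9 genes in 8 comparisons, 730 values from other processing settings kept their direction and side of the threshold, 25 lost the call, 43 gained it and 9 changed sign; leaving out 1 array gave 960, 19, 12 and 17. Genes called changed as follows. Without probe sets ending in _x_at or _s_at, 4 genes remained testable. Of these, 3 were called with OHT in scrambled cells (67.1% of all genes) and 1 for knockdown without OHT (6.29%). With OHT, 4 were called for shFOXO33 (43.1%), 3 for shFOXO707 (37%) and 1 between hairpins (38.7%). Knockdown with OHT gave 3 with virus as a random block (1.36% of all genes). Knockdown without OHT gave 6 in 6 title groups, where the all-gene share also rose, to 30.6%. With shFOXO33 alone only 1 array stood for knockdown without OHT, so no count is given. The interaction gave 3 with virus as a random block (4.39% of all genes) and 3 in 6 title groups (9.69%). With either hairpin alone the interaction likewise had 1 knockdown array without OHT, so no count is given. Leaving out 1 array gave 0 to 1 for the interaction, 3 to 6 for knockdown without OHT, 5 to 8 for shFOXO33 and 3 to 8 for shFOXO707.

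Replicate numbers did not pair the arrays (correlations of same-numbered deviations -0.017 to 0.047). For the hairpins, the replicate block was fitted only on the OHT arrays with replicate numbers 1 and 2. For OHT it was fitted only on the scrambled arrays. The parts of the block and of the fewer arrays were not tested. In these fits knockdown with OHT called 1 of the 9, SLC7A1, beside 0.246% of all genes, and shFOXO33 with OHT 5, beside 43.5%. SLC7A11 (1.41, limma adjusted p = 0.118) and SLC7A5 (-0.99, limma adjusted p = 0.107) lost the call, while SLC7A5 with OHT in scrambled cells gained it (limma adjusted p = 0.00702).

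Signs turned on centring by the array median for SLC7A5 with OHT in scrambled (0.084) and knockdown cells (0.064) and for SLC7A1 in scrambled cells (0.033), the last also without _x_at and _s_at probe sets (0.17). With shFOXO707 alone SLC7A5 with OHT was 0.10, and its interaction 0.24; that interaction was 0.036 after quantile normalization. The interaction was -0.18 for SLC3A2 with shFOXO33 alone and -0.12 for SLC38A2 with shFOXO707 alone. Leaving out 1 array moved the interaction from -0.12 to 0.079 for SLC7A5, -0.078 to 0.12 for SLC3A2, -0.022 to 0.43 for SLC38A1 and -0.18 to 0.25 for SLC38A2. It moved SLC38A2 with OHT in knockdown cells from -0.030 to 0.40 and SLC3A2 with shFOXO707 from -0.058 to 0.0084. Between hairpins it moved SLC7A1 from -0.12 to 0.018 and SLC1A5 from -0.34 to 0.25. The cause was not tested. Over all genes, 34.1% of the calls with OHT in scrambled cells were higher, against 51.3% on centring; in knockdown cells the shares were 35.6% and 56.1%. All-gene calls ranged from 19 to 3821 for knockdown with OHT and from 4 to 748 for the interaction.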

Other observations

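Genes of the amino acid response differed between the hairpins with OHT, and these were chosen after their values were seen. Of the 19 tested, 9 were higher and 5 lower with shFOXO33 than with shFOXO707, beside 43.5% of all genes called. TRIB3, a pseudokinase of the stress response, differed by 1.57 ± 0.10 (limma adjusted p = 3.98e-09), averaging 683.4 ± 35.9 (SD, n = 2) and 220.0 ± 3.28 (SD, n = 2). ATF4 differed by 0.49 ± 0.05 (limma adjusted p = 1.79e-06) and ASNS, asparagine synthetase, by -0.72 ± 0.06 (limma adjusted p = 1.04e-07). The shFOXO707 arrays were also those with the high ACTB ratio, and its part was not tested.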
